A study of Mus musculus with 24 samples.

Results

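The comparison concerns the aorta of sham-infused mice at 6 months against 2 months, 4 libraries at each time and so 8 of the 24 libraries of the series. Members were chosen by their labels for treatment and time. The mice were wild type (WT) and had an osmotic minipump that delivered vehicle under the skin for 2 weeks, and their aortas were collected 6 or 2 months afterwards. The series asks what remains in the aorta after a 2-week episode of hypertension, which the other mice received as an infusion of angiotensin II (Ang II), a peptide that narrows arteries. Ang II aortas at 6 and 2 months and sham aortas at 4 months, 4 libraries each, are set beside the sham change where they bear on it. The sources used here do not give the age of the mice. Whether replicates came from different animals is not stated, and a p-value therefore reflects only how far these libraries spread, which may be technical. The material was homogenate of whole aorta, so every value below is a sum over the cells of the wall and of whatever tissue was attached.

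The libraries of the 2 times were of different make-up, and this touches every result. Total counts were 45318747, 43875887, 46790484 and 53265636 at 6 months, against 24345435, 22279692, 23411275 and 21209670 at 2 months. The labels name the same messenger RNA kit for all samples. On the first principal component of the 12 sham libraries, which held 61.47% of the variance, the 2-month libraries lay between 22.28 and 45.46, the 4-month libraries between 41.31 and 65.93 and the 6-month libraries between -99.23 and -76.7. Several classes of RNA without a poly(A) tail, among them misc RNA (0.2766 to 0.3637% of counts at 6 months, against 0.0006578 to 0.000877% at 2 months), took much more of the 6-month libraries. Genes of biotype rRNA, which leaves out the mitochondrial ones, were an exception, with 0.07285 to 0.3332% at 6 months and 0.1043 to 0.1905% at 2 months. That share does not cover any ribosomal RNA reads counted to genes of other biotypes. Every 6-month library is of the one kind and every 2-month library of the other, so the months that passed and the kind of library cannot be told apart. Smooth muscle markers of the labelled tissue were present in all 8 libraries, with Acta2 at 279.6 CPM or more and Myh11 at 212.9 CPM or more. CPM stands for counts per 1000000 of the TMM-normalised library size, on one scale for all 24 libraries. That size is smaller than the total count where a few RNAs take much of a library, so CPM values of one library can sum to more than 1000000.

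Most messenger RNAs of mammalian cells end in a tail of adenosines that is added after a signal, usually AAUAAA, near the end of the transcript. Selection with oligo(dT) keeps such RNAs. Replication-dependent histone messages end instead in a conserved stem-loop, and small nuclear, small nucleolar and Cajal body RNAs, 7SK, 7SL, Y RNAs, transfer RNAs and nuclear ribosomal RNA also lack a tail. Mitochondrial ribosomal RNAs carry very short tails. In the aorta, contractile smooth muscle lies between elastic layers, endothelium lines the inside, and the adventitia outside holds fibroblasts, macrophages, nerve fibres and, around them, brown-like and white fat.

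The following sequences are shown because they illustrate the histone stem-loop and the poly(A) signal. The first 4 are stretches of replication-dependent histone transcripts from mouse chromosome 13 (GRCm38, GENCODE vM21 transcripts, printed 5′ to 3′ in the sense of the transcript), with the stem-loop motif in capitals. The annotated transcripts run on past these stretches. They are bases 698 to 727 of 1560 in Hist1h1c and 402 to 431 of 470 in Hist1h4h. In Hist1h4d they are bases 346 to 375 of 1138 and in Hist1h4c 344 to 373 of 820.
Hist1h1c: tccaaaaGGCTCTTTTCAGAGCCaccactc
Hist1h4h: aaccaaaGGCCCTTTTCAGGGCCgcccaca
Hist1h4d: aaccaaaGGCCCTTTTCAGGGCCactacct
Hist1h4c: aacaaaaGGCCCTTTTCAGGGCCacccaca
They lie at chr13:23739505-23739534 and chr13:23531451-23531480 on the plus strand, chr13:23581943-23581972 on the plus strand and chr13:23698082-23698111 on the minus strand. Beside them stand ends with a poly(A) signal, in capitals, from Actb (chr5:142903127-142903156, minus strand), which encodes cytoplasmic beta-actin, and H3f3b (chr11:116021985-116022014, minus strand), which encodes the replication-independent histone H3.3.
Actb: acttgagaccAATAAAagtgcacaccttac
H3f3b: aggccttacaAATAAActagtaagtttgga
The motif searched on the sense strand of annotated transcripts was GG, 2 bases, CTTTT, 1 base, AG, 1 base, GCC. It was found in 39 of 61 replication-dependent histone genes of the table (63.9%), against 47 of 21901 protein-coding genes (0.215%). AATAAA within the last 50 bases was found in 13 of those 61 genes (21.3%), against 14391 of the 21901 (65.7%). A gene can hold both, as Hist1h1c does.

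Small RNAs that rose are shown with the letters that mark their kind. Snord15a, a box C/D small nucleolar RNA (chr7:99482785-99482932, minus strand), has a C box core and a D box in capitals. Snora23, a box H/ACA small nucleolar RNA (chr7:110046364-110046547, plus strand), has its ACA box in capitals. Rny3, a Y RNA (chr6:47781624-47781725, plus strand), and the last 60 bases of Rn7sk, the 7SK RNA that holds back transcription elongation (chr9:78175303-78175362, minus strand), are RNA polymerase III transcripts with the closing run of T in capitals.
Snord15a: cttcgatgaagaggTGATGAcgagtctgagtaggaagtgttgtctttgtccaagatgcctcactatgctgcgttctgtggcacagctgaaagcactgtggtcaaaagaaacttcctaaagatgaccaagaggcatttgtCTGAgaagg
Snora23: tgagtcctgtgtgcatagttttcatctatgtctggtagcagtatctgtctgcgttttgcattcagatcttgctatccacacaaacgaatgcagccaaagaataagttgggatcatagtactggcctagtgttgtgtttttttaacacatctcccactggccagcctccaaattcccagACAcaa
Rny3: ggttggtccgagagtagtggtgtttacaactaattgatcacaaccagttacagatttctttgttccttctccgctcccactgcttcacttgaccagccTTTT
Rn7sk: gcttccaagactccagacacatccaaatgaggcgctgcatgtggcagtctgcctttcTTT
Of the 39 small nucleolar RNA genes tested, 27 (69.2%) had ACA 3 bases before the end and 6 (15.4%) had TGATGA within the first 30 bases, both searched on the sense strand.

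In percentage points, protein-coding genes and mitochondrial ribosomal RNA shifted furthest among the classes. Mitochondrial ribosomal RNA made up 27.13 to 48.86% of counted reads at 6 months, against 0.7246 to 1.222% at 2 months. Protein-coding genes off the mitochondrial chromosome fell to 32.51 to 53.36% at 6 months, against 84.73 to 91.21% at 2 months, and held 82.6 to 88.87% in the sham aortas at 4 months. Long noncoding RNA held 3.618 to 7.969% at 6 months, against 0.5134 to 0.6679% at 2 months. Most of that 6-month share was held by a single gene, Gm26917, whose values are given below. Genes of biotype miRNA held 3.748 to 6.611%, against 0.04049 to 0.06346%. Nearly all of that 6-month share was held by a single gene, Gm23935, whose values are given below. The class named misc RNA, with 7SK, 7SL and Y RNAs, held 0.2766 to 0.3637%, against 0.0006578 to 0.000877%. Replication-dependent histones held 0.03166 to 0.06716%, against 0.01578 to 0.02185%. In none of the classes named so far in this paragraph did a 6-month library overlap a 2-month library. For long noncoding RNA that separation rests on Gm26917. Other classes did overlap, such as genes of biotype rRNA, given above, and mitochondrial transfer RNA, with 0.01056 to 0.02376% at 6 months, against 0.01192 to 0.01831% at 2 months. The mitochondrial protein-coding genes overlapped as well, at 4.606 to 10.43% in the 6-month libraries, against 6.981 to 13.04% in the 2-month libraries. All genes of the mitochondrial chromosome together held 31.75 to 59.31% at 6 months, against 7.718 to 14.28% at 2 months. Shares of one library sum to the whole, so a class that takes more of the reads lowers the share of all others.

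**Figure D1:**
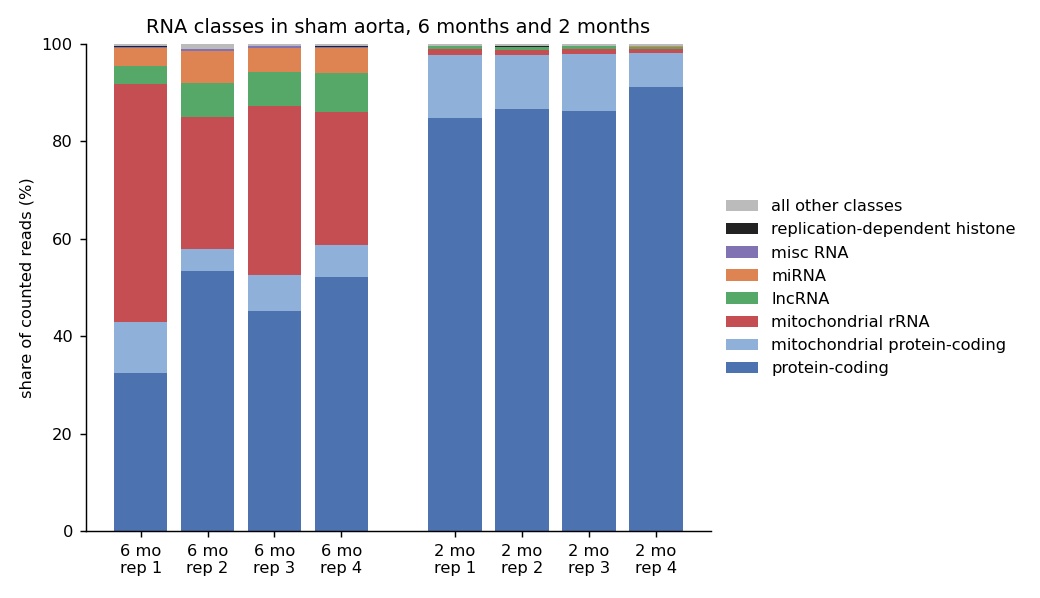
Share of counted reads (%) by RNA class in each sham library, 6 months on the left and 2 months on the right. Mitochondrial ribosomal RNA took 27.13 to 48.86% at 6 months, against 0.7246 to 1.222% at 2 months, and its largest share was in 6-month replicate 1.

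Of 37606 genes in the count table, 18267 passed the filter on low counts, and 10475 of them (57.3%) differed between 6 and 2 months at an adjusted p under 0.05 (edgeR quasi-likelihood test, Benjamini-Hochberg over all genes tested). Of all genes tested, 5196 (28.4%) were higher and 5279 (28.9%) lower at 6 months, and the median log2 fold change was 0.04. These shares stand beside every tally of a list or class below. Where a log2 fold change of 1 or more in size was demanded too, 3364 rose and 2113 fell. The 6-month libraries lay wholly above the 2-month libraries in 4757 genes (26.0%) and wholly below in 5016 (27.5%). Protein-coding genes made up 14993 of the tested genes. Of these 3519 rose and 4997 fell, with a median of -0.07. Fitted on their own they gave 3995 higher (26.6%) and 4279 lower (28.5%) and a median of 0.04, so leaving the other classes out of the scaling shifts a protein-coding gene upward by about 0.11. That shift stands beside every log2 fold change below. The 3274 genes of all other classes split 1677 higher to 282 lower, with a median of 1.21. In the comparison of 4 with 2 months 1762 genes of these classes passed the filter. Many of the 3274 thus passed through their 6-month counts, and the split describes those that passed only.

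The same time contrast in Ang II aortas uses none of these 8 libraries, but its libraries also differed in make-up between the times. Mitochondrial ribosomal RNA took 26.59 to 48.6% of the Ang II libraries at 6 months. These were not wholly like the sham libraries at 6 months. Ang II replicate 4 held 13.65% of its counts in genes of biotype rRNA and 23.27% in protein-coding genes. Long noncoding RNA ran from 1.382 to 10.3%. In Ang II aortas 5009 of 18235 genes were higher (27.5%) and 4692 lower (25.7%) at 6 months. Across the 17694 genes tested in both treatments the log2 fold changes had a Pearson r of 0.917 and a Spearman rho of 0.845, given as a description across genes, which are not independent replicates. Both treatments called 3732 genes higher, 76.6% of the 4870 called in sham and 77.7% of the 4804 called in Ang II. They called 3904 genes lower, 74.6% of 5236 in sham and 84.3% of 4631 in Ang II. Sham aortas at 4 months, whose comparison shares the 2-month sham libraries, differed from them in 1 of 16144 genes (0.00619%) by edgeR, with 2549 at an unadjusted p under 0.05. That gene was Prdm16, a transcription factor of brown fat, with 16.28 to 19.36 CPM at 4 months and 32.47 to 39.07 CPM at 2 months. With 1 library left out the count was 641 without 4-month replicate 4 and 0 or 1 without any of the others.

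**Figure D2:**
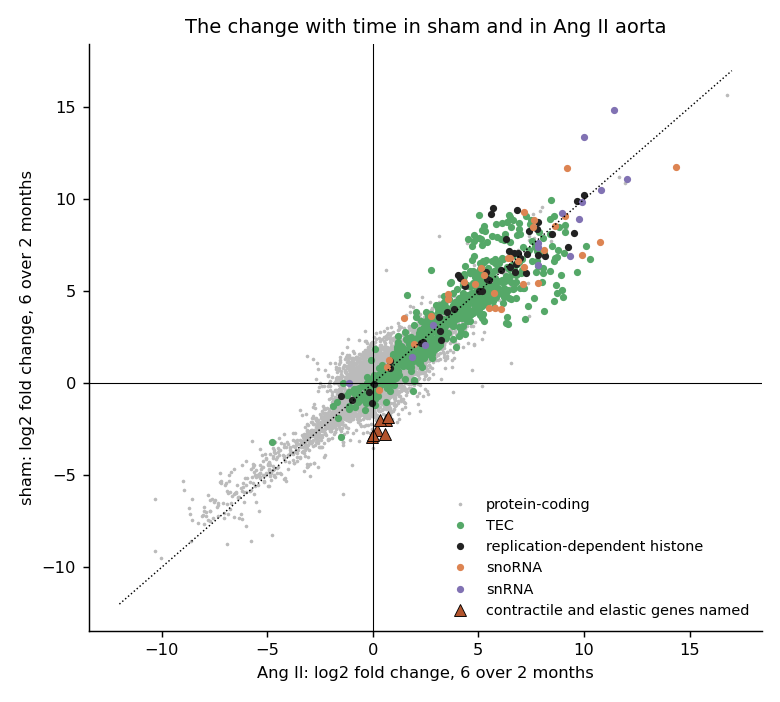
Log2 fold change of 6 over 2 months for genes tested in both treatments, with sham on the vertical axis and Ang II on the horizontal axis. Most genes lie near the dotted line of equal change (Pearson r 0.917). The triangles, which lie below it, are Acta2, Myh11, Cnn1, Lmod1, Tpm2, Eln and Mfap4, picked with their values known. Other contractile and elastic genes that the text names, such as Fbn1, Loxl4, Ppp1r14a and Myocd, are not marked by triangles.

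Small nuclear RNAs, the cores of the splicing machinery, rose in 17 of 18 genes tested and fell in 0. Their median log2 fold change was 7.65, or 6.47 with the 7 genes that had no count at 2 months put at the lower bound that 3 counts over the 4 libraries allow. Misc RNA rose in 18 of 21 genes and fell in 1, with a median of 6.21, or 5.3 with 5 such genes at the bound. Small nucleolar RNAs, which guide the modification of ribosomal RNA, rose in 35 of 39 genes and fell in 0, with a median of 5.89, or 5.41 with 6 genes at the bound. Cajal body RNAs, which guide modification of small nuclear RNAs, rose in 9 of 10 and fell in 0, with a median of 5.63. In Ang II aortas 14 of 16 small nuclear and 29 of 32 small nucleolar RNA genes rose between the same times. A gene of these classes passed the filter mostly through its 6-month counts, so these tallies leave out those that were low at both times.

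Rn7sk had 5241, 2770, 4622 and 4044 CPM at 6 months, against 2.362, 2.091, 1.659 and 4.226 CPM at 2 months. The groups were far apart, and its log2 fold change was 10.66 ± 0.459 (SE, adjusted p = 7.51e-06). The small nuclear RNA gene Gm22513 had 427.7, 119, 194.4 and 100.8 CPM at 6 months, against 0.1058, 0.1371, 0.03456 and 0.08206 CPM at 2 months, and rose by 11.11 (adjusted p = 1.87e-05). Gm25939, another of that class, had 206.3, 99.78, 122 and 51.36 CPM at 6 months and no count at 2 months, so it was at least 4430-fold higher. The 7SL genes Rn7s1 and Rn7s2 encode the RNA of the signal recognition particle. Rn7s2 had 29.13 to 44.4 CPM at 6 months and none at 2 months, at least 1370-fold higher. Rn7s1 had 331.5, 157.4, 3.922 and 223.5 CPM at 6 months and also none at 2 months. Replicate 3 was low for it although not for Rn7s2, and since the genes are near-identical copies the division of reads between them is uncertain. The rise of Rn7s1 had an adjusted p of 0.00323, and 0.0649 by limma voom with quality weights.

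Scarna2, a Cajal body RNA, had 235.8, 152.2, 161.5 and 121.1 CPM at 6 months, against 0.7757, 0.2743, 0.4147 and 0.4923 CPM at 2 months, a log2 fold change of 8.42 ± 0.345 (SE, adjusted p = 6.34e-06). Scarna6 had 64.36 to 210.1 CPM at 6 months and 0 to 0.07052 CPM at 2 months. Snord17, a box C/D RNA, had 68.26 to 157.6 CPM at 6 months and 0 to 0.07052 CPM at 2 months. Snora23, whose sequence is above, had 24.68, 7.369, 12.39 and 3.471 CPM at 6 months, against 0.07052 CPM in 1 library and 0 in 3 at 2 months. Snord15a had 7.053, 3.635, 5.209 and 2.682 CPM at 6 months, against 0.03526 CPM in 1 library and 0 in 3 at 2 months. Rny3 had 4.356, 4.979, 3.503 and 2.186 CPM at 6 months and no count at 2 months, at least 139-fold higher. In all of these the 6-month libraries lay above the 2-month libraries. No fold is given for Scarna6, Snord17, Snora23 and Snord15a, since their 2-month groups rest on 3 counts or fewer.

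A list of spliced genes that carry small nucleolar RNAs in their introns held more members that fell than rose. Of 15 such host genes 11 fell and 0 rose, with a median of -0.88, against 28.9% of all genes that fell. Gas5, a growth-arrest transcript and host of C/D RNAs, had 25.02, 20.84, 24.19 and 16 CPM at 6 months, against 50.35, 63.12, 46.76 and 52.23 CPM at 2 months, and fell by 1.30 on the log2 scale (adjusted p = 0.000228). Snhg8 fell by 1.40, Snhg6 by 1.33 and Snhg20 by 1.48 on the same scale. In Ang II aortas the hosts also gave 11 lower and 0 higher of 15. Hosts were not matched to the guide RNAs that they carry.

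**Figure D3:**
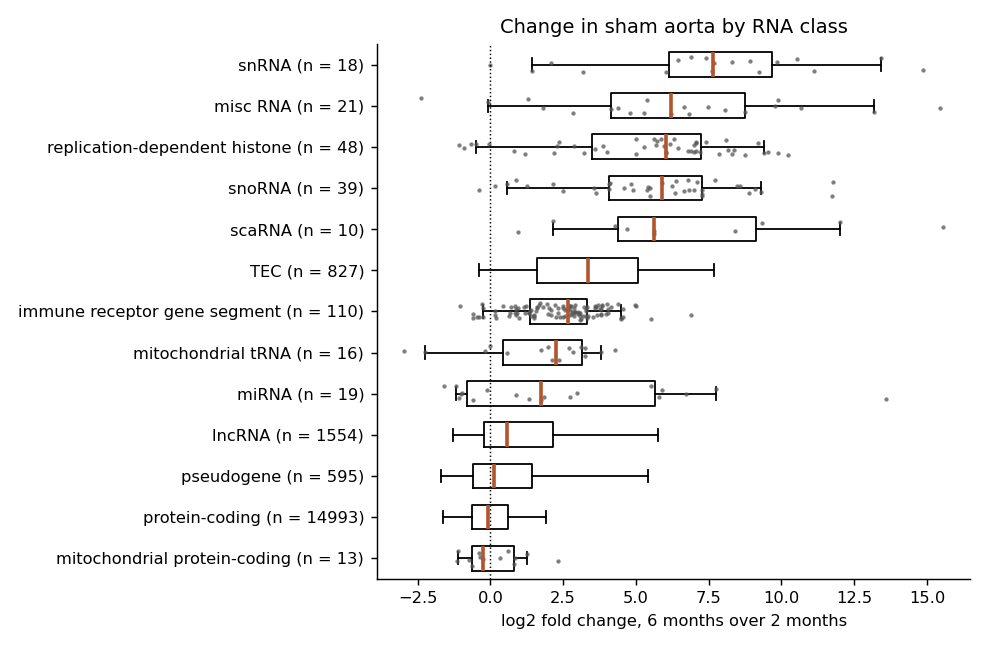
Log2 fold change, 6 months over 2 months, by RNA class (n is genes tested). Boxes give the quartiles with the median as a coloured line, whiskers the central 90% of genes, and points single genes in classes of up to 110 genes. Fitted values of genes without any 2-month count depend on the prior count. Small nuclear RNAs have the highest median (7.65) and mitochondrial protein-coding genes the lowest (-0.26).

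Replication-dependent histone genes, which are transcribed in S phase to package new DNA, rose in 43 of 48 tested genes and fell in 3, with a median log2 fold change of 6.04. Of the 61 in the table the other 13 did not pass the filter on low counts. In the comparison of 4 with 2 months 14 passed, so most of the 48 passed through their 6-month counts and the tallies and medians describe those genes only. At a mean of at least 1 CPM there were 45 of the 48 at 6 months and 8 at 2 months. Ang II aortas gave 41 higher and 1 lower of 46. Hist1h4d, an H4 gene, had 53.64, 62.17, 60.6 and 48.68 CPM at 6 months, against 0.07052, 0, 0.2765 and 0.1641 CPM at 2 months, a log2 fold change of 8.76 ± 0.452 (SE, adjusted p = 9.58e-06) that was 9.47 without 2-month replicate 3. Hist1h4c averaged 47.74 ± 5.293 CPM at 6 months and 0.1679 ± 0.121 CPM at 2 months (SD, n = 4 each). Hist1h4h had 62.98, 72.42, 65.15 and 56.63 CPM at 6 months, against 6.417, 4.697, 6.186 and 4.062 CPM at 2 months, a log2 fold change of 3.60 ± 0.166 (SE, adjusted p = 7.51e-06). Hist1h2ak had 2.254 to 7.245 CPM at 6 months and no count at 2 months, at least 173-fold higher. H4 genes encode the same protein from near-identical sequences, so the division of reads between copies is uncertain.

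The members did not all move alike. Hist1h1c, a linker histone gene whose annotated transcript holds both the stem-loop and AATAAA, had 135.2, 138.9, 130.2 and 109.4 CPM at 6 months, against 73.05, 53.76, 72.06 and 91.9 CPM at 2 months, and rose by 0.83 ± 0.161 (SE, adjusted p = 0.00231). Hist2h2be, an H2B gene with AATAAA, averaged 9.83 ± 1.891 CPM at 6 months and 10.15 ± 1.165 CPM at 2 months (SD, n = 4 each) and had a log2 fold change of -0.04 (adjusted p = 0.86). Hist3h2a, an H2A gene with both motifs, averaged 2.116 ± 0.3079 CPM at 6 months and 3.965 ± 0.1904 CPM at 2 months (SD, n = 4 each) and fell by 0.90 on the log2 scale (adjusted p = 0.00276). The 9 tested genes with AATAAA in the last 50 bases had a median of 3.88 over a range of -0.9 to 8.3, with 6 higher and 1 lower. The 39 without it had a median of 6.32 over -1.08 to 10.22, with 37 higher and 2 lower. Hist2h4, which has both motifs, was the highest of the 9, with 26.64 ± 5.043 CPM at 6 months and 0.07976 ± 0.03095 CPM at 2 months (SD, n = 4 each). The stem-loop letters did not divide the genes, since 30 of the 33 with them and 13 of the 15 without them rose, with medians of 5.98 and 6.18. On chromosome 13, which carries most of the genes, 39 of 40 rose, against 3 of 5 on chromosome 3, 0 of 2 on chromosome 11 and 1 of 1 on chromosome 6.

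Replication-independent histones, whose messages have poly(A) tails, did not share the rise. Of 10 genes 8 fell and 0 rose, with a median of -0.70. H3f3b had 101.2, 131.7, 126.5 and 114.5 CPM at 6 months, against 188.1, 206.1, 190.5 and 249.6 CPM at 2 months, and fell by 0.81 (adjusted p = 0.00154). H1fx, a linker histone gene, fell by 2.02 and H2afj, an H2A variant, by 0.96 on the log2 scale. Genes of the cell cycle, measured beside the histones, gave 2 higher and 1 lower of 19, with a median of 1.01.

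Genes of biotype miRNA split 10 higher to 3 lower of 19. Reads counted here fall on the annotated gene and do not measure a mature miRNA. The largest value was that of Gm23935 (chr16:11144125-11144181, plus strand), with 69630, 71310, 67940 and 59690 CPM at 6 months, against 325.3, 225.4, 282.4 and 428.5 CPM at 2 months, and a log2 fold change of 7.74 ± 0.393 (SE, adjusted p = 9.58e-06). Gm25911 (chr1:167340369-167340424, minus strand) had 522.1, 378.9, 572.5 and 524 CPM at 6 months, against 0.1641 CPM in 1 library and 0 in 3 at 2 months. Neither gene was among the called genes of this biotype with a RefSeq miRNA entry. Whether their reads come from a miRNA precursor was not tested. The 2 annotated genes share 55 bases of 57 and 56, as the sequences show with the differing bases in capitals, so reads of one can be counted to the other.
Gm23935: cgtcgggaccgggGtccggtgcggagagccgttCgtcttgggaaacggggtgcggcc
Gm25911: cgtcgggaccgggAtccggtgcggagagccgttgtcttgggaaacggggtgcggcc
A similar excess was held by the long noncoding gene Gm26917, with 57450, 68390, 91070 and 87990 CPM at 6 months, against 32.68, 64.52, 40.23 and 67.57 CPM at 2 months, a log2 fold change of 10.54 ± 0.543 (SE, adjusted p = 9.58e-06).

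Of the 13 called genes of biotype miRNA, 7 had an entry in RefSeq, and 3 are shown with the mature sequence (RefSeq, GRCm38.p6) and its seed, bases 2 to 8, in capitals. They have different seeds.
miR-365-3p: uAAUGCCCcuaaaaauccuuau
miR-703: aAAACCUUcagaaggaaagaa
miR-6236: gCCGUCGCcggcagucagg
The precursor gene Mir365-1 had 0.6638, 0.4232, 0.9281 and 1.059 CPM at 6 months, against 0.03526 CPM in 1 library and 0 in 3 at 2 months. Mir703 fell by 1.61 on the log2 scale, with 1.223 ± 0.1436 CPM at 6 months and 3.727 ± 1.762 CPM at 2 months (SD, n = 4 each, adjusted p = 0.00426). Mir6236 had 148.9, 371.9, 118.9 and 104.1 CPM at 6 months, against 43.37, 46.63, 46.45 and 74.51 CPM at 2 months, a log2 fold change of 1.83 (adjusted p = 0.0061). In 1 fit of all 24 libraries its adjusted p was 0.185.

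Among the 31 genes of the mitochondrial chromosome that were tested, both ribosomal RNAs and 11 of 16 transfer RNAs rose, while 9 of 13 protein-coding genes did not pass the test. Mitochondrial mt-Rnr2, the large ribosomal RNA, had 722800, 234800, 382900 and 262100 CPM at 6 months, against 8454, 6645, 6990 and 5124 CPM at 2 months, a log2 fold change of 5.87 ± 0.622 (SE, adjusted p = 0.000113). The small ribosomal RNA mt-Rnr1 had 195900, 61560, 101000 and 67050 CPM at 6 months, against 2039, 1612, 1910 and 1181 CPM at 2 months, a log2 fold change of 5.97 ± 0.54 (SE, adjusted p = 5.65e-05). Replicate 1 was highest of the 6-month libraries for both. Of 16 transfer RNA genes 11 rose and 2 fell, with a median of 2.24. The gene of the cysteine transfer RNA, mt-Tc, had 108.7, 43.22, 62.27 and 52.51 CPM at 6 months, against 8.885, 7.68, 8.363 and 2.954 CPM at 2 months. That of asparagine, mt-Tn, rose by 3.11 ± 0.464 (SE, adjusted p = 0.000584). The groups overlapped for the proline gene mt-Tp, with 29.78 to 165.3 CPM at 6 months and 87.19 to 118.6 CPM at 2 months and a log2 fold change of -0.19 (adjusted p = 0.702). The 2 that fell were those of glutamate and tryptophan, mt-Te by 2.97 and mt-Tw by 2.26 on the log2 scale.

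Of the 13 mitochondrial protein-coding genes 2 rose and 2 fell, with a median of -0.26. The complex IV subunit gene mt-Co1 had 111600, 30140, 62600 and 47870 CPM at 6 months, against 48210, 35570, 38410 and 21780 CPM at 2 months. The groups overlapped (log2 fold change 0.80, adjusted p = 0.162). mt-Nd1, of complex I, averaged 7466 ± 4375 CPM at 6 months and 9780 ± 1157 CPM at 2 months (SD, n = 4 each, log2 fold change -0.40, adjusted p = 0.383). Without 6-month replicate 1 its log2 fold change was -0.84 with an adjusted p of 0.0349. mt-Co3, another complex IV gene, had 105.2, 101.6, 326.4 and 105.8 CPM at 6 months, against 26.94, 18.17, 19.39 and 63.68 CPM at 2 months, and rose by 2.34 (adjusted p = 0.00709), or by 1.72 without 6-month replicate 3. mt-Nd6, which lies on the other strand, had 2704, 587.1, 1046 and 1214 CPM at 6 months, against 3685, 2987, 3187 and 2343 CPM at 2 months, and fell by 1.15 (adjusted p = 0.0374), with the groups overlapping. That call ends at a minimum count of 50 (adjusted p = 0.0602) and without 6-month replicate 2, 3 or 4 or 2-month replicate 1, 2 or 3, with adjusted p between 0.0571 and 0.0975.

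Long noncoding RNA genes rose in 615 and fell in 163 of 1554, with a median of 0.57, and Ang II aortas gave 608 and 147 of 1511. The table holds 6844 such genes, and 1001 passed the filter in the comparison of 4 with 2 months. Many of the 1554 thus passed through their 6-month counts, and the tally and median describe those that passed only. Malat1, an abundant nuclear RNA whose end is a triple helix rather than a tail, had 5029, 3106, 2795 and 3136 CPM at 6 months, against 834.2, 1133, 884.8 and 588.2 CPM at 2 months, a log2 fold change of 2.03 ± 0.26 (SE, adjusted p = 0.000269). Kcnq1ot1, a nuclear antisense RNA that silences imprinted genes, rose by 2.66 ± 0.163 (SE, adjusted p = 1.69e-05), and Lncpint by 5.80 ± 0.252 (SE, adjusted p = 7.51e-06). Tug1 had 66.75 to 79.24 CPM at 6 months and 39.36 to 47.47 CPM at 2 months, a log2 fold change of 0.79. Neat1, the scaffold of paraspeckles, averaged 373.8 CPM at 6 months and 501.9 CPM at 2 months, and fell by 0.42 (adjusted p = 0.0447). Its call ends without 6-month replicate 1, 2 or 4 or 2-month replicate 1 or 3, with adjusted p between 0.0643 and 0.135. It also ends with DESeq2 size factors (0.0731), a minimum count of 50 (0.132) and all 24 libraries in 1 fit (0.103). Among long RNAs listed as held in the nucleus 4 of 9 rose and 4 fell. Snhg11 fell by 2.10. Lncbate1, needed for the brown fat programme in mice, had 4.929 to 8.654 CPM at 6 months and 14.47 to 25.31 CPM at 2 months and fell by 1.70. Bvht, a cardiac lineage RNA in mice, fell by 1.64.

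The biotypes within and beside that class differed. Genes of biotype TEC, which are loci still to be experimentally checked, rose in 675 and fell in 20 of 827, with a median of 3.35. The table holds 2562 TEC genes, and 195 passed the filter in the comparison of 4 with 2 months, so most of the 827 passed through their 6-month counts. Sense intronic genes rose in 78 and fell in 2 of the 98 that passed of 289, with a median of 3.56, and the same limit holds for them. Antisense genes rose in 295 and fell in 48 of 602 (median 1.05), and long intergenic genes in 153 and 69 of 515 (median 0.33). Both are part of the long noncoding class, with the limit of the filter given above. Genes at bidirectional promoters gave 7 higher and 13 lower of 60 (median -0.13), and pseudogenes 181 higher and 88 lower of 595 (median 0.13). Introns and antisense loci overlap other genes, and the sources used here do not give the strand setting of the counting, so their reads cannot be told apart from those of the genes they overlap. Immune receptor segments rose in 58 and fell in 0 of 110 in sham aortas (median 2.66), while Ang II aortas gave 12 higher and 4 lower of 133 (median 0.27). Those that rose in sham were immunoglobulin segments, 57 of 93 V and 1 of 1 J. Of the constant genes, 0 of 11 immunoglobulin (median 1.0) and 0 of 5 T cell receptor genes (median -0.25) were called. The share of counts of all immune receptor segments was 0.0504, 0.2798, 0.05813 and 0.05622% at 6 months and 0.02362, 0.1638, 0.02352 and 0.0795% at 2 months. The groups thus overlapped, and replicate 2 was the highest at each time. In the test of that difference 1 segment passed. The markers of B and plasma cells moved beside them with 1 higher and 0 lower of 14, and their summed level was 528.9 to 2293 CPM at 6 months and 175.3 to 1215 CPM at 2 months. Their part in the segment counts was not tested.

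Within protein-coding genes the change ran with the length of the transcript. In the quartile with the shortest exonic length, 231 to 2767 bases, 8.97% rose and 52.1% fell, with a median of -0.58 over 3745 genes. In the longest quartile, 6781 to 123200 bases, 48.9% rose and 14.3% fell, with a median of 0.44 over 3745 genes. The quartiles between had medians of -0.28 and 0.01. The Ang II change had medians of -0.61 in the shortest and 0.46 in the longest quartile, and the sham change of 4 against 2 months, in libraries of one make-up, 0.03 and -0.07. GC content ran with it too, with a median of 0.12 in the quartile of lowest GC and -0.36 in the quartile of highest GC. Short genes of high GC had a median of -0.70 (1429 genes) and long genes of low GC 0.45 (1391 genes), while short genes of low GC had -0.36 and long genes of high GC 0.27. How much of any single gene's change goes with its length was not tested.

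**Figure D4:**
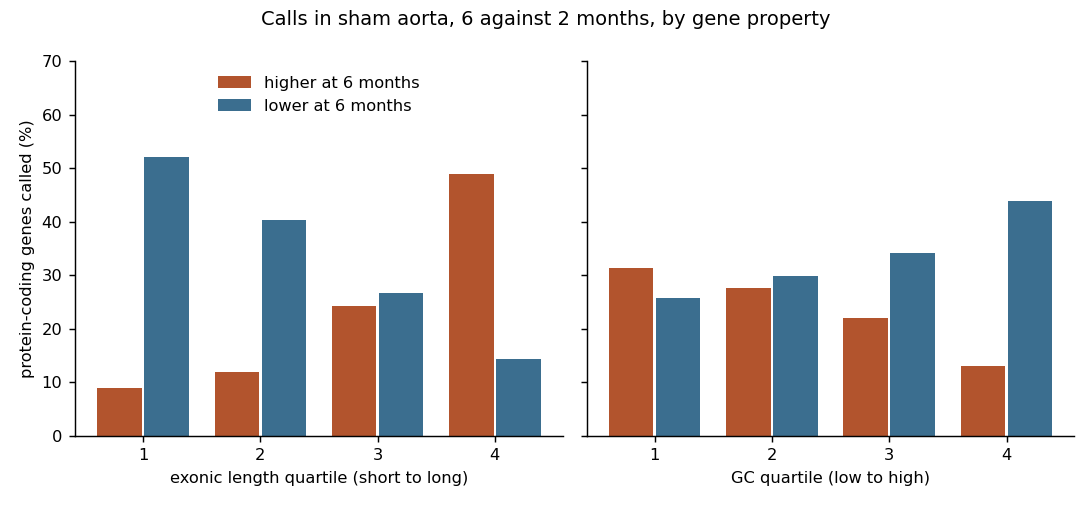
Percentage of tested protein-coding genes called higher (orange) or lower (blue) at 6 months, by quartile of exonic length (left) and of GC content (right). The share called lower is 52.1% in the shortest quartile and 14.3% in the longest.

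Genes of the smooth muscle contractile apparatus fell. Of 25 tested, 17 fell and 2 rose, with a median log2 fold change of -1.67, against 28.9% of all genes that fell and a median of 0.04 over all genes. Acta2, smooth muscle actin, had 279.6, 397, 297.1 and 447.4 CPM at 6 months, against 2218, 1560, 1268 and 3272 CPM at 2 months, and fell by 2.54 ± 0.331 (SE, adjusted p = 0.000289). Myh11, the smooth muscle myosin heavy chain, had 251.2, 304.3, 212.9 and 313.1 CPM at 6 months, against 1215, 916.3, 721.6 and 1017 CPM at 2 months, and fell by 1.83 ± 0.2 (SE, adjusted p = 0.000127). Every 6-month library lay below every 2-month library for both. Calponin 1 (Cnn1) fell by 2.90, leiomodin 1 (Lmod1) by 2.81, tropomyosin 2 (Tpm2) by 2.77 and Ppp1r14a, an inhibitor of myosin phosphatase, by 3.06. Myocd, the coactivator that switches these genes on, was among those that rose (1.89). The summed level of the list was 2844 to 3694 CPM at 6 months and 7078 to 11380 CPM at 2 months. In a homogenate, fewer cells of a type and less RNA per cell cannot be told apart.

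The contractile fall was not seen in Ang II aortas, where 9 of the 25 rose and 1 fell, with a median of 0.19, and the difference itself passed the test for 15 of the 25. Acta2 averaged 409.8 ± 118.9 CPM in Ang II aortas at 6 months and 355.4 ± 201.4 CPM in Ang II aortas at 2 months (SD, n = 4 each). Its change in sham minus that in Ang II was -2.70 (adjusted p = 0.0231), that of Myh11 -2.51 (adjusted p = 0.0115) and that of Cnn1 -2.85 (adjusted p = 0.0112). The summed level of the list was 3843 to 6466 CPM in Ang II aortas at 6 months and 2726 to 3977 CPM in Ang II aortas at 2 months, and 2197 to 5342 CPM in sham aortas at 4 months, so the 2-month sham libraries were the high ones. Sham aortas at 4 months, compared with the same 2-month libraries, had a list median of -1.50 with 0 genes called, and Acta2 there averaged 429 ± 409 CPM (SD, n = 4).

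**Figure D5:**
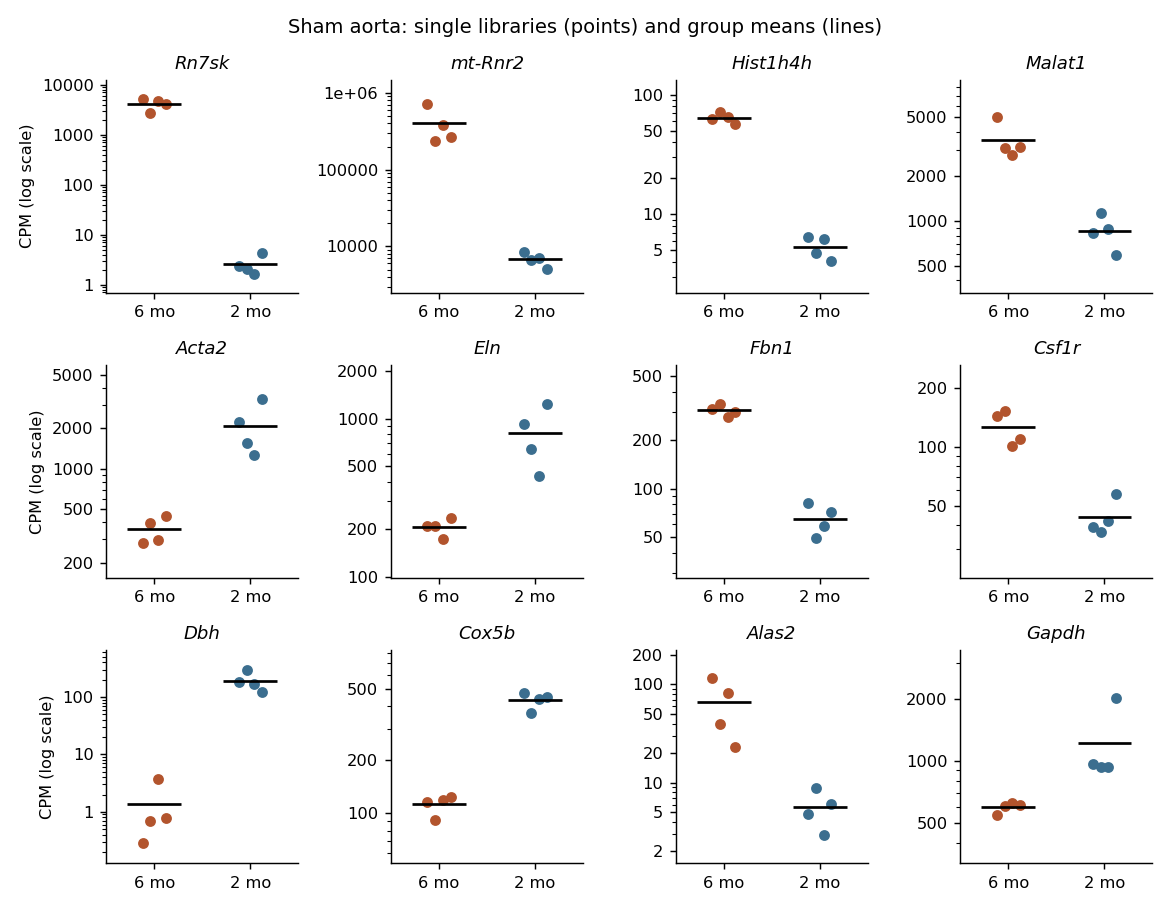
CPM of 12 genes in each sham library (points, log scale), 6 months on the left and 2 months on the right of each panel, with group means as lines. Acta2 lies between 279.6 and 447.4 CPM at 6 months and between 1268 and 3272 CPM at 2 months, while Fbn1 and Csf1r are higher at 6 months.

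Elastic fibre genes gave 6 higher and 4 lower of 22 (27.3% and 18.2%) with a median of 0.09, no more than the 28.4% and 28.9% over all genes, and single members moved far in both directions. Elastin (Eln) had 208.8, 209.2, 173.7 and 236.8 CPM at 6 months, against 925.6, 644.8, 435.6 and 1240 CPM at 2 months, and fell by 1.97 ± 0.305 (SE, adjusted p = 0.000707). Mfap4, a microfibril-associated glycoprotein, fell by 1.98. Fibrillin 1 (Fbn1), the microfibril scaffold on which elastin is laid down, had 313.5, 334.2, 278.8 and 298.7 CPM at 6 months, against 81.87, 49.17, 58.27 and 71.43 CPM at 2 months, and rose by 2.24 ± 0.162 (SE, adjusted p = 2.52e-05). Loxl4, an enzyme that crosslinks elastin and collagen, rose by 2.10. The groups did not overlap for any of these 4. Ang II aortas gave 13 higher and 0 lower of 22, and the difference of the changes for Eln was -2.55 (adjusted p = 0.0129).

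Of 18 collagen genes 8 rose and 4 fell (44.4% and 22.2%, beside 28.4% and 28.9% over all genes), with a median of 0.37. Col3a1, a chain of the fibrils of distensible tissue, had 1206, 640.6, 722.7 and 786.3 CPM at 6 months, against 512.9, 319, 420.4 and 347.6 CPM at 2 months, a log2 fold change of 1.07 ± 0.215 (SE, adjusted p = 0.00285). Col1a1, the main fibrillar chain, rose by 0.72 ± 0.152 (SE, adjusted p = 0.0037). Col14a1 and Col12a1, fibril-associated collagens, rose by 2.03 and 1.66. Col18a1, the basement membrane collagen that contains endostatin, had 114.5 to 152.5 CPM at 6 months and 196.3 to 373 CPM at 2 months and fell by 1.22. Genes that fold and secrete collagen gave 2 higher and 8 lower of 17. The prolyl hydroxylase P4ha2 fell by 0.74 and Sparc, a collagen-binding matricellular protein, by 0.67, while the procollagen proteases Adamts2 and Bmp1 rose by 0.79 and 0.78.

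Fibroblast genes rose in 7 and fell in 0 of 15 (46.7% and 0.0%, beside 28.4% and 28.9% over all genes), with a median of 0.21. Pdgfra, the platelet-derived growth factor receptor of adventitial fibroblasts, had 66.97 to 84.5 CPM at 6 months and 18.96 to 46.12 CPM at 2 months and rose by 1.28 (adjusted p = 0.00199). Scara5 rose by 0.96 and Opcml, a cell adhesion molecule, by 2.17. Endothelial genes fell in 14 and rose in 2 of 19, with a median of -0.61. Sox18, a transcription factor of endothelium, had 14.56, 12.82, 14.73 and 15.32 CPM at 6 months, against 58.03, 56.02, 55.05 and 59.7 CPM at 2 months, and fell by 1.99 ± 0.0799 (SE, adjusted p = 6.34e-06). Sox17 fell by 1.30 and Ecscr by 1.18. Vwf, the clotting protein stored in endothelial cells, had 207.8 to 312.9 CPM at 6 months and 89.54 to 126.5 CPM at 2 months and rose by 1.31 (adjusted p = 0.000214). Most of the endothelial list thus fell (73.7%, beside 28.9% over all genes), and 10.5% rose (beside 28.4%). Which cells these reads came from was not tested.

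Macrophage genes rose in 9 and fell in 0 of 20 (45.0% and 0.0%), with a median of 0.62. Over all genes 28.4% rose and 28.9% fell. Csf1r, the receptor that keeps macrophages alive, had 143.9, 152.2, 100.4 and 109.4 CPM at 6 months, against 38.85, 36.82, 41.71 and 57.4 CPM at 2 months, a log2 fold change of 1.54 ± 0.188 (SE, adjusted p = 0.000211). Adgre1, which encodes F4/80, rose by 1.94, the haemoglobin scavenger receptor Cd163 by 1.71 and the mannose receptor Mrc1 by 1.67. Cd68, a lysosomal marker of the same cells, had 14.35, 15.26, 10.54 and 10.59 CPM at 6 months and 7.58, 9.326, 6.704 and 15.51 CPM at 2 months, and did not pass (log2 fold change 0.38, adjusted p = 0.277). Without 2-month replicate 4 its log2 fold change was 0.66 with an adjusted p of 0.0245. Ang II aortas gave 6 higher and 7 lower of 20, and the difference passed for 3 genes, Cd68 among them (1.85). T and NK cell genes gave 0 higher and 1 lower of 17, MHC class II genes 1 and 0 of 9, and interferon stimulated genes 3 and 6 of 18 (16.7% and 33.3%).

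General adipocyte genes fell in 12 and rose in 1 of 15, with a median of -0.83, while brown adipocyte genes fell in 4 of 13 (30.8%), close to the 28.9% over all genes, with 0 higher and a median of -0.50. Adiponectin (Adipoq) had 596.9, 484.3, 502.8 and 587 CPM at 6 months, against 1287, 1102, 1077 and 1280 CPM at 2 months, and fell by 1.12 ± 0.125 (SE, adjusted p = 0.000139). The fatty acid carrier Fabp4 fell by 1.69, adipsin (Cfd) by 1.78, lipoprotein lipase (Lpl) by 1.20 and resistin (Retn) by 2.47. Cidea, a lipid droplet protein of brown fat, fell by 1.11, and Prdm16 by 0.50. Ucp1, the uncoupling protein that makes heat in brown fat, had 313.8, 494.4, 532.7 and 815.3 CPM at 6 months and 1202, 518.8, 1232 and 499.8 CPM at 2 months, and the groups overlapped (log2 fold change -0.66, adjusted p = 0.18). Fatty acid synthesis genes gave 2 higher and 5 lower of 13 (15.4% and 38.5%), beside 28.4% and 28.9% over all genes. Among the 5, Me1 and Thrsp rested much on 2-month replicate 4. Malic enzyme (Me1) had 180.4, 271.9, 264 and 199.3 CPM at 6 months, against 628.9, 558, 534.2 and 3945 CPM at 2 months, a log2 fold change of -2.62, or -1.34 without that library. Thrsp, which promotes lipogenesis, had a log2 fold change of -1.87, or -1.12 without it.

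Genes of sympathetic neurons, the noradrenergic cells that supply the vessel wall, were far lower at 6 months than at 2 months. All 21 genes of a list drawn up after the values were seen fell, with a median of -6.50, and their summed level was 30.12 to 51.46 CPM at 6 months and 870.2 to 2206 CPM at 2 months. Dbh, the enzyme that makes noradrenaline, had 0.2904, 0.6971, 3.682 and 0.7662 CPM at 6 months, against 180.8, 292, 169.1 and 122.8 CPM at 2 months, and fell by 7.10 ± 0.794 (SE, adjusted p = 0.000141). Tyrosine hydroxylase (Th) fell by 7.31 and neuropeptide Y (Npy) by 9.50. The transcription factors Hand1 and Phox2a fell by 9.11 and 7.65, the vesicle proteins Chga and Scg2 by 7.21 and 7.35, and peripherin (Prph) by 7.01. For none of the 21 did a 6-month library overlap a 2-month library, and 27.5% of all genes lay wholly below. With the list chosen from the values, the tally and the separation describe its members and test nothing. Without 6-month replicate 3, the highest of its group, Dbh was lower by 8.26, Th by 8.14 and Hand1 by 10.04. The change was present in Ang II aortas as well, with 0 higher and 21 lower of 21 and a median of -7.20, and the sham 4 against 2 months comparison had 0 genes called and a median of 0.56. The wider list of Schwann cell and neuronal genes, which shares members with it, fell in 14 of 16 with 0 higher (median -2.33), and summed to 212.9 to 243.6 CPM at 6 months and 866.5 to 1470 CPM at 2 months. Schwann cell and myelin genes, also a list drawn up later, fell in 9 of 12 with 0 higher and a median of -1.10.

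Several other lists of cells that can lie in or on an aorta held more members that rose than fell. Lymphatic and mesothelial genes rose in 7 of 10 with 0 lower (median 1.32). Upk3b, a marker of mesothelium, had 519.2, 151, 181.8 and 220.2 CPM at 6 months, against 76.65, 42.82, 81.08 and 52.31 CPM at 2 months, a log2 fold change of 2.08 (adjusted p = 0.00201). Mesothelin (Msln) rose by 1.79, Wt1 by 2.48 and Lrrn4 by 2.53. Erythroid genes rose in 7 of 9 with 0 lower (median 2.33), and their summed level was 532.2 to 3165 CPM at 6 months and 223.6 to 508 CPM at 2 months. Alas2, the haem synthesis enzyme of red cell precursors, had 116.6, 40.01, 82.66 and 23.35 CPM at 6 months, against 4.83, 8.777, 2.938 and 6.031 CPM at 2 months, a log2 fold change of 3.52. Beta-globin (Hbb-bs) rose by 2.66 and the red cell anion exchanger Slc4a1 by 3.61. Platelet genes, a list drawn up after the values were seen, rose in 10 of 12 with 0 lower (median 4.53), and their summed level was 105.2 to 313.5 CPM at 6 months and 44.41 to 76.27 CPM at 2 months. Of these 12 genes, 9 passed the filter on low counts in the comparison of 4 with 2 months, and the tally describes the list as chosen. Tubb1, the tubulin of platelets, rose by 7.62 and the platelet chemokine Ppbp by 5.7. Mast cell and neutrophil genes rose in 5 of 10 with 0 lower, among them the mast cell proteases Cpa3 (2.05) and Cma1 (1.49).

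Some changes rest on a part of the libraries. Keratin 13 (Krt13), of stratified squamous epithelium, had 6.555, 3.71, 6768 and 1343 CPM at 6 months, against 0.1382 CPM in 1 library and 0 in 3 at 2 months. Without 6-month replicates 3 and 4 its log2 fold change was 7.01 in place of 15.67. The keratin partner Krt4 had a log2 fold change of 10.90 (adjusted p = 0.0122), or 2.49 (adjusted p = 0.27) without those 2 libraries, and Rptn, a cornified envelope protein, 11.22 (adjusted p = 0.00737), or 3.32 (adjusted p = 0.0724). Without 6-month replicate 3 alone the values were 13.49 for Krt13, 8.71 for Krt4 and 9.03 for Rptn, and without 2-month replicate 3 they were 19.0, 14.39 and 13.98. By limma voom with quality weights none of these 3 genes passed (adjusted p = 0.171, 0.149 and 0.31). Squamous genes, a list drawn up after the values were seen, rose in 11 of 13 with 0 lower, and summed to 32.19, 35.63, 21040 and 4194 CPM in 6-month replicates 1 to 4. In the comparison of 4 with 2 months 7 of the listed genes passed the filter on low counts. Part of the 13 thus passed through their 6-month counts, and the tally describes the list as chosen and tests nothing. Airway epithelial genes summed to 147.9, 7880, 3984 and 7007 CPM in the 6-month libraries and 119.6, 94.46, 10140 and 939.1 CPM in the 2-month libraries, and gave 1 higher and 0 lower of 15. Myh8, the perinatal myosin of skeletal muscle, had 1.908, 157.5, 142.2 and 191 CPM at 6 months, against 0.6346, 0.3429, 0.864 and 0.04103 CPM at 2 months (log2 fold change 8.02, adjusted p = 0.00118, and 0.0675 by limma voom). Skeletal muscle genes as a list gave 0 higher and 4 lower of 16 cardiac genes 0 and 1 of 11, and thyroid genes 0 and 1 of 5. The part of attached tissue in any of these values was not tested.

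Genes of basic cell functions with short transcripts fell together. Cytosolic ribosomal protein genes fell in 24 of 29 with 0 higher (median -0.91), and proteasome genes in 20 of 20 (median -0.98). Rplp2, a protein of the ribosomal stalk, had 275.8, 273.1, 259.8 and 213.3 CPM at 6 months, against 635.8, 745.8, 604.7 and 836.6 CPM at 2 months, and fell by 1.46 ± 0.154 (SE, adjusted p = 0.000111). Rps29 fell by 1.40, and the proteasome subunits Psmc1 and Psma4 by 1.47 and 1.32. Nuclear genes of the respiratory chain fell in 20 of 22 with 0 higher (median -0.79). Cox5b, of complex IV, had 116.3, 91.34, 119.3 and 123.8 CPM at 6 months, against 478.6, 366.9, 439.2 and 449.7 CPM at 2 months, and fell by 1.94. The complex I subunits Ndufb10, Ndufa1 and Ndufa4 fell by 2.07, 1.62 and 1.20. Ang II aortas gave 27 lower of 29 ribosomal, 20 of 20 proteasome and 13 of 22 respiratory chain genes, with 0 higher in each. The median exonic length was 1726 bases in the ribosomal, 2196 in the respiratory chain and 2708 in the proteasome list. In the shortest quartile of protein-coding genes as a whole, 52.1% fell.

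Chaperone genes fell in 12 and rose in 1 of 17 (median -0.56). The mitochondrial chaperonins Hspe1 and Hspd1 fell by 1.12 and 0.87, and the co-chaperone Bag3 by 1.12. Splicing factor genes fell in 11 and rose in 3 of 20, with Rbm25 lower by 1.25 and Srsf5 by 0.83 on the log2 scale. Circadian clock genes gave 4 higher and 7 lower of 19 (21.1% and 36.8%), with a median of 0.05. Over all genes 28.4% rose and 28.9% fell, with a median of 0.04. The clock genes named next were all among those that fell. Dbp, an output factor of the clock, had 25.85, 17.08, 14.79 and 19.16 CPM at 6 months, against 89.87, 121.1, 101 and 65.11 CPM at 2 months, and fell by 2.30 ± 0.22 (SE, adjusted p = 7.31e-05). The repressors Nr1d1, Bhlhe41 and Ciart fell by 1.53, 1.72 and 1.95. The sources used here do not give the time of day of collection. Immediate early genes gave 7 higher and 4 lower of 22 (31.8% and 18.2%), beside 28.4% and 28.9% over all genes. Fosl2, an AP-1 factor, had 77.03 to 135.3 CPM at 6 months and 24.96 to 34.14 CPM at 2 months and rose by 1.84. Atf3 rose by 1.42 and the nuclear receptor Nr4a1 by 1.31, while Zfp36, which destabilises inflammatory messages, fell by 1.31.

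Senescence genes gave 1 higher and 3 lower of 12. Igfbp5, an insulin-like growth factor binding protein, had 2669, 1174, 1056 and 1297 CPM at 6 months, against 415.3, 272.2, 500.2 and 400.8 CPM at 2 months, a log2 fold change of 1.96. Its relative Igfbp7 fell by 1.44 and the cyclin-dependent kinase inhibitor Cdkn2c by 1.30. Of the TAM receptors and their ligands, which clear dying cells, 1 of 5 rose and 0 fell. Axl had 196.2, 181.6, 155.3 and 173.5 CPM at 6 months, against 119.6, 94.94, 92.62 and 173.8 CPM at 2 months. The highest 2-month library reached the 6-month range, and the log2 fold change was 0.56 (adjusted p = 0.0409). That call ends without 6-month replicate 1, 2 or 4 or 2-month replicate 1, 2 or 3, with adjusted p between 0.0602 and 0.116, and with no filter on low counts (0.0607). Mertk averaged 24.02 CPM at 6 months and 31.1 CPM at 2 months, with a log2 fold change of -0.37 (adjusted p = 0.0506). With replicate numbers as a block it was -0.36 (adjusted p = 0.0198), and it also passed without 6-month replicate 1 or 2-month replicate 3 or 4. The ligand Gas6 had a log2 fold change of 0.40 (adjusted p = 0.101).

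Renin angiotensin genes gave 4 higher and 2 lower of 8. Angiotensinogen (Agt), the precursor of angiotensin peptides, had 2.282, 2.29, 1.677 and 2.164 CPM at 6 months, against 8.321, 11.86, 8.121 and 48 CPM at 2 months, and fell by 3.18 (adjusted p = 0.00246), or by 2.19 without 2-month replicate 4. The mineralocorticoid receptor Nr3c2 had 23.35 to 28.46 CPM at 6 months and 10.73 to 14.72 CPM at 2 months and rose by 1.06. Lnpep, an aminopeptidase that binds angiotensin IV, had 176.8, 189.1, 175.2 and 201.1 CPM at 6 months, against 21.05, 15.7, 19.01 and 11 CPM at 2 months, and rose by 3.49 ± 0.196 (SE, adjusted p = 1.2e-05). Both genes often used to scale other measurements moved, in opposite directions. Actb had a log2 fold change of 0.61 (adjusted p = 0.0248), a call that ends without 2-month replicate 1, 2 or 3 (adjusted p between 0.0528 and 0.0875) or with no filter on low counts (0.0564). Gapdh had 544.5, 606.3, 627.6 and 610.8 CPM at 6 months, against 972.9, 931.7, 938 and 2037 CPM at 2 months, and a log2 fold change of -1.02 (adjusted p = 0.0121).

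By chromosome, the share of tested protein-coding genes that rose ran from 18.0% on chromosome 19 to 30.3% on chromosome 18, and the share that fell from 26.6% on chromosome 1 to 38.4% on chromosome 7. The medians of the 20 chromosomes lay between -0.22 on chromosome 7 and 0.11 on chromosome 1. Chromosome 1 had a median exonic length of 5303 bases and a median GC content of 47.6%, and chromosome 7 had 4072 bases and 52.8%. Other chromosomes did not follow length or GC in order, since chromosome 11, with 3736 bases and 52.8%, had a median of -0.16 and chromosome X, with 4286.5 bases and 45.4%, had -0.09. The part of length and GC was not tested. The mitochondrial chromosome stood apart, with 15 higher and 4 lower of 31 genes and a median of 0.84.

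The change with time differed between sham and Ang II aortas in 198 of 20100 genes (0.985%), 55 with a larger value in sham and 143 with a larger value in Ang II. DESeq2 called 477, and the count fell to 124 without sham 6-month replicate 3, 122 without sham 2-month replicate 1 and 128 without Ang II 2-month replicate 2. Among the 5 with the smallest p, Cebpb, a C/EBP transcription factor, had 98.59 to 119.7 CPM in sham aortas at 6 months and 93.07 to 107.7 CPM in sham aortas at 2 months, and did not pass (log2 fold change 0.16, adjusted p = 0.171). In Ang II aortas it averaged 88.38 CPM at 6 months and 295.3 CPM at 2 months, and the difference of the changes was 1.93 (adjusted p = 0.000366). Nr4a1 rose by 1.31 in sham and fell by 2.81 in Ang II aortas, a difference of 4.15 (adjusted p = 0.000938). Klhl25, an adaptor of a ubiquitin ligase, rose by 1.13 in sham and fell by 0.93 in Ang II aortas, a difference of 2.09. Enah, an actin regulator, fell by 0.46 in sham and rose by 1.26 in Ang II aortas, a difference of -1.69. Dysf, which repairs muscle membranes, fell by 0.88 in sham and rose by 0.31 in Ang II aortas, a difference of -1.16. The differences in make-up between sham and Ang II libraries at 6 months, given above, were not tested for their part in these values. Without Ang II 6-month replicate 4 the count was 149.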

How the data were processed

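The authors deposited whole-number read counts per gene for 24 libraries. Per the submitters' processing notes, the build was mm10 and the tools named are STAR, featureCounts, cutadapt, FastQC and DESeq2. The sources used here give no versions, strand setting or handling of shared reads. Biotypes and chromosomes came from the authors' deposited comparison tables, then from GENCODE vM21.

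The tests used edgeR 4.0.16 under R 4.3.3 (filterByExpr, minimum count 10 and minimum total 15, TMM, quasi-likelihood F test, Benjamini-Hochberg at 0.05) on the 8 libraries of each comparison, and on 16 for the interaction. The SE is the log2 fold change over the square root of F. The steps were tested on simulated data. Named genes were, by rule, the 10 largest non-overlapping rises and falls of protein-coding genes with a mean of at least 5 CPM, 5 each way of long noncoding RNAs, up to 4 called genes per list, the 4 most abundant per other biotype, 24 set genes and the 5 smallest interaction p. The text gives part of these, and some other members of the lists. Members, lists and rule were chosen with earlier results of these data known. Lists get no test. Other settings were DESeq2 size factors, DESeq2 1.42.0, limma 3.58.1 voom, no filter, a minimum count of 50, all 24 libraries in 1 fit, protein-coding genes only, a replicate block and leaving out libraries.

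Deviations of same-numbered 6-month and 2-month sham libraries from their group means had r of 0.438, 0.22, 0.137 and 0.117. The replicate block, which was not in the main fit, treats such libraries as pairs. The support is weak: 6-month replicate 4 was closer to 2-month replicate 3 (0.289), and the Ang II libraries gave 0.217, -0.331, 0.178 and -0.244. The labels do not say what the numbers stand for.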

Additional observations from a re-analysis of the deposited data

Results flagged for a closer look

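In a group of 4 libraries, a value was picked out where its gap to the nearest of the others exceeded Dixon's critical share of the range at the 95% level. This met 25 of 304 combinations of named gene and group, and chance picks about 1 in 20. No explanation was weighed. In 6-month replicate 1 the values standing apart were those of Malat1 (5030 CPM), Kcnq1ot1 (118 CPM), Loxl4 (10.7 CPM), Bmp1 (74.0 CPM), Wt1 (62.9 CPM), Gas6 (322 CPM) and Igfbp5 (2670 CPM). In 6-month replicate 2 it was Mir6236 (372 CPM), and in 6-month replicate 3 it was mt-Co3 (326 CPM), H2afj (20.1 CPM) and Dbh (3.68 CPM). Without 6-month replicate 3 the log2 fold change of mt-Co3 was 1.72 (adjusted p = 0.0116).

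In 2-month replicate 4 they were Retn (850 CPM), Me1 (3940 CPM), Thrsp (4040 CPM), Agt (48.0 CPM), Gapdh (2040 CPM), Cdkn2c (182 CPM), Mir6236 (74.5 CPM) and Gm25911 (0.164 CPM). In 2-month replicate 3 they were Krt4 (5.53 CPM), Rptn (0.38 CPM) and Krt13 (0.138 CPM). In 2-month replicate 1 they were Snora23 (0.0705 CPM), Snord15a (0.0353 CPM) and Mir365-1 (0.0353 CPM), where the other libraries had no count.

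The change from 2 to 6 months differed between sham and Ang II aortas for 20 of the genes named, by the interaction term over 16 libraries. Sham minus Ang II was negative for the contractile and elastic genes Acta2 (-2.70), Myh11 (-2.51), Cnn1 (-2.85), Lmod1 (-2.80), Eln (-2.55) and Mfap4 (-2.27). It was also negative for Myocd (-2.08), Col18a1 (-1.79), P4ha2 (-1.03), Prdm16 (-1.51), Dbp (-1.88), Bhlhe41 (-1.66), Mertk (-1.15), Enah (-1.69) and Dysf (-1.16). It was positive for Cd68 (1.85), Atf3 (2.56), Nr4a1 (4.15), Cebpb (1.93) and Klhl25 (2.09).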

How the results depend on the processing

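For the genes named, 2460 of 2526 values under another setting kept their direction and their side of the threshold. Of the rest, 43 lost the call, 16 gained it and 7 turned round. The replicate block gave 10477 calls against 10475 and changed the call of Mertk and of no other named gene. The sign turned for mt-Tp without 6-month replicate 2 (0.12, and between -0.63 and 0.12 over all libraries left out) and for Hist2h2be (-0.04), which was 0.01 with DESeq2 size factors and in DESeq2, 0.09 at a minimum count of 50, 0.00 by limma voom, and between -0.14 and 0.06 with 1 library left out. The cause was not tested. Calls in sham at 6 against 2 months numbered 5477 with a log2 fold change of 1 or more in size, and 9094 to 11124 with 1 library left out. DESeq2 size factors made the split 5427 higher to 4910 lower. Without 6-month replicates 3 and 4, a setting added after seeing the data, 8593 genes were called. For sham at 4 against 2 months, with settings added in the same way, leaving out 1 library gave 0 to 641 calls (641 without 4-month replicate 4), and the block, for which same-numbered libraries had r of -0.173, -0.303, -0.292 and 0.18, gave 140. The interaction gave 477 calls in DESeq2 and 122 to 222 with 1 library left out, fewest without 2-month sham replicate 1. Depth limits genes near 1 count per library at 2 months, where only a lower bound of the fold can be had.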
